A study of Mus musculus with 16 samples.

Results

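The insulin-like growth factor (IGF) axis was followed through 8 genes, chosen by symbol: Igf1, Igfbp2, Igfbp3, Igfbp4, Igfbp5, Irs1, Grb10 and Igf2bp1. They were chosen with earlier results of these data known, so counts of the 8 set beside shares of all genes are a description. All 8 were found, among 5921 genes on chromosomes 1, 10 and part of 11, and all 8 were among the 2620 genes tested. RNA was sequenced from mouse heart ventricles at E11.5, in 16 libraries that form 4 groups of 4. In the exon 2-3 line (batch 1), the transgene Xmlc2-Cre removed exons 2 and 3 of the transcription factor gene Atf4 from cardiomyocytes, giving the exon 2-3 conditional knockout (cKO). In the exon 2 line (batch 2), the same transgene removed exon 2 alone. Each cKO was compared with the controls of its own line. The genotype label of every library, cKO included, reads C57BL/6 WT. The labels do not say whether controls carried a floxed allele or the Cre, and each line was its own batch. Effects of line and of batch therefore cannot be told apart. Cre acted in cardiomyocytes, while the ventricle also holds endocardial, epicardial, mesenchymal and blood cells, which the transgene is not meant to target. In such bulk tissue, fewer cells of a type and less RNA per cell cannot be told apart. The labels number the libraries of a group but do not say that each came from its own litter.

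IGF1 is a secreted growth factor that acts through the IGF1 receptor, a tyrosine kinase. IGF binding proteins hold it in the extracellular space, and can lower or raise its access to the receptor. Inside the cell the active receptor phosphorylates adaptors such as IRS1, which recruit PI3 kinase and so switch on AKT and growth through mTORC1, while GRB10 binds the receptor and dampens it. In the embryonic heart, IGF signalling is known for driving cardiomyocyte proliferation. The receptor genes and the second ligand gene, Igf2, were not analysed here.

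Deletion of exons 2 and 3 went with a lower level of Igfbp2 and higher levels of Irs1 and Igf2bp1. These 3 of the 8 genes passed an adjusted p of 0.05 (limma, Benjamini-Hochberg over all genes tested), against 6.72% of all genes. The 2 that rose stand against 4.16% of all genes called higher, and the 1 that fell against 2.56% called lower. Higher calls were 61.9% of all calls in that line, 50.5% after quantile normalisation and 41.4% after median centring, and the 3 genes kept their calls and directions under both. In 3 of the 8 the groups did not overlap, against 14.5% of all genes. Igfbp2 fell by 26.4%, while Irs1 was 1.49-fold and Igf2bp1 1.22-fold higher in mean TPM (transcript abundance per unit length, scaled to a fixed library total). With exon 2 alone removed, 0 of the 8 genes passed, against 0.0763% of all genes, and 1 of the 8, Igfbp2, had an unadjusted p under 0.05, against 3.21%. None of the 8 separated the groups there, against 1.83% of all genes. The difference between the lines' effects passed for 0 of the 8 genes, against 2.37% of all genes, and 4 of the 8 had an unadjusted p under 0.05 there, against 15.0% of all genes. Of all calls for that difference, 67.7% were higher, and 53.4%, 52.0% and 56.2% after quantile normalisation, median centring and rescaling. The 2 control groups differed in 5 of the 8 genes, all lower in the exon 2-3 controls, against 52.6% of all genes called and 38.1% called lower. Higher calls were 27.5% of all calls between the controls, 39.9% after quantile normalisation and 57.7% after median centring.

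The stretches of 250 bases before the annotated start of Irs1 and of Igfbp2 are printed here, since these genes were called in opposite directions in the exon 2-3 line. They are from RefSeq on GRCm38.p6, 5′ to 3′ on each gene's own strand, at chr1:82291440-82291689 (minus strand, Irs1) and chr1:72824230-72824479 (plus strand, the first of 2 annotated Igfbp2 starts). Capitals mark the letters GGGCGG, the GC box to which SP1 factors bind.
Irs1: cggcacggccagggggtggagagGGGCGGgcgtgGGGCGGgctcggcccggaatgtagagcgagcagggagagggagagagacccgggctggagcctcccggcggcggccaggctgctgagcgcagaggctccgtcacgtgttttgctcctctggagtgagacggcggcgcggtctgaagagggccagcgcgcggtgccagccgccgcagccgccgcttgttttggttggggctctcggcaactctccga
Igfbp2: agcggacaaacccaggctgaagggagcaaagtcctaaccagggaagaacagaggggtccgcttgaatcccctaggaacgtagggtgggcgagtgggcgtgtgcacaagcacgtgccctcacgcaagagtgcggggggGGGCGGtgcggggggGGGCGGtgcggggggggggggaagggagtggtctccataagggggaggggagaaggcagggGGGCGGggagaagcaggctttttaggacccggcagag
Counted from the start, the GC boxes of Irs1 begin at -227 and -216, and those of Igfbp2 at -113, -98 and -37. On either strand, GGGCGG is present in 32.7% of 32851 windows of this length before annotated mouse starts, so holding it does not set these genes apart. The letters TGATGNAA, the core of the composite element bound by ATF4 with C/EBP factors, are present in 3.45% of all windows and in 0 of the 9 windows of 7 members. The letters TGACGTCA, the cyclic AMP response element, were in 0 of the 9 as well, against 1.55% of all windows. TATAAA was in 1 of the 9, against 12.4% of all windows. It began at -28 in Igfbp4, counted from an annotated start at 99041244. That start lies within the span given for Igfbp4 below, as do the starts used for Igf1 (87861111) and Igfbp3 (7213923) within theirs. Such matches describe letters only, and Igf2bp1 had no window.

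In TPM, which is scaled per transcript length, the genes spanned a wide range of levels. Grb10 was the most abundant member in all 4 groups, with a mean of 735 TPM over the 16 libraries, above 98.7% of the genes tested. Igfbp5 (341 TPM) and Igfbp4 (238 TPM) followed, then Igfbp2 (71.7 TPM) and Igf2bp1 (44.9 TPM). Irs1 (22.7 TPM), Igf1 (19.1 TPM) and Igfbp3 (17.2 TPM) were lowest. Igfbp4 and Igfbp5 overlapped in both groups of the exon 2-3 line, while all Igfbp5 libraries exceeded all Igfbp4 libraries in both groups of the exon 2 line. The lower end of the order also varied. Irs1 stood above Igf1 without overlap in both groups of the exon 2-3 line, while the 2 genes overlapped in both groups of the exon 2 line. Igfbp3 overlapped its nearest neighbour in all 4 groups.

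**Figure D1:**
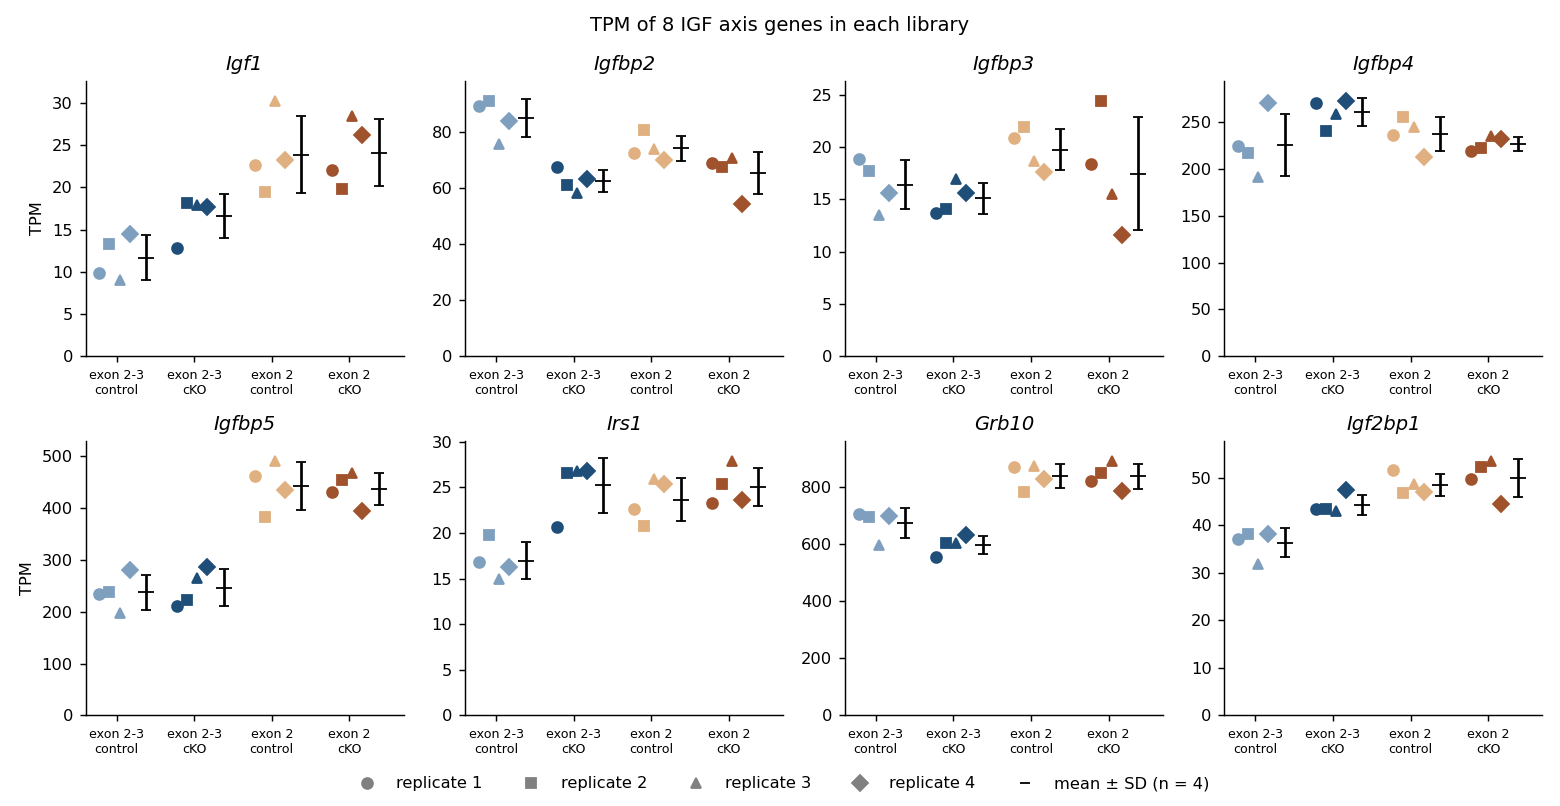
TPM of the 8 genes (1 panel each, linear axis from 0) in the 4 groups, with 1 symbol per library and black marks for the mean ± SD of 4 libraries. Igfbp2 is lower, and Irs1 and Igf2bp1 are higher, in all 4 exon 2-3 cKO libraries than in their 4 controls, and Igfbp5, Igf1 and Grb10 are lower in the exon 2-3 controls than in the exon 2 controls.

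Igf1 (chromosome 10, 87858265 to 87937047, plus strand, GRCm38.p6) encodes the ligand. Its TPM in exon 2-3 controls 1 to 4 was 9.79, 13.3, 8.97 and 14.5, and in the exon 2-3 cKO libraries it was 12.8, 18.1, 17.9 and 17.6. The groups overlapped through cKO replicate 1, which lay below controls 2 and 4, while the other cKO libraries lay above all controls. The mean went from 11.6 ± 2.67 to 16.6 ± 2.57 TPM (SD, n = 4 each), a log2 fold change of 0.49 (SE 0.16, 95% interval 0.13 to 0.85) that did not pass (limma adjusted p 0.105). Exon 2 controls had 22.6, 19.4, 30.2 and 23.3 TPM and their cKO libraries 22.1, 19.8, 28.5 and 26.2 TPM. These groups covered nearly the same range, with a log2 fold change of 0.02 (95% interval -0.29 to 0.32). The antisense row Igf1os lies within Igf1 and averaged 0.0389 TPM.

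Of the 4 binding protein genes, Igfbp2 alone was called, in the exon 2-3 line. In that line 2 of the 4 log2 fold changes were negative and 2 positive, and with the exon 2 allele all 4 were negative and none passed. Igfbp2 and Igfbp5 are neighbours on chromosome 1, on opposite strands and with 5590 bases between them. Igfbp2 (72824480 to 72852474) encodes a binding protein abundant in fetal tissues. Its exon 2-3 controls had 89.0, 90.8, 75.6 and 84.0 TPM and the cKO libraries 67.4, 61.1, 58.0 and 63.2 TPM. Every cKO library was below every control, which held for 5.31% of all genes. The mean went from 84.8 ± 6.79 to 62.4 ± 3.97 TPM (SD, n = 4 each), a log2 fold change of -0.43 (SE 0.070, limma adjusted p 0.00745). Leaving out any 1 of the 8 libraries kept this call, as did each of the 10 other settings tried.

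For the exon 2 allele, Igfbp2 was measured at 72.4, 80.4, 73.7 and 70.0 TPM in controls and at 68.8, 67.2, 70.7 and 54.3 TPM in cKO libraries. Here the groups overlapped through cKO replicate 3, and cKO replicate 4 was the lowest of the 8 libraries. The log2 fold change was -0.19 (95% interval -0.37 to -0.001357, limma unadjusted p 0.0486, adjusted p 0.999), and -0.10 without cKO replicate 4. Its difference from the effect in the exon 2-3 line was -0.25 (95% interval -0.49 to -0.005848, limma adjusted p 0.312), so the fall was not shown to differ between the lines.

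Igfbp5 (chromosome 1, 72858065 to 72874865) encodes a binding protein that also attaches to extracellular matrix. Exon 2-3 controls had 235, 237, 198 and 280 TPM and the cKO libraries 211, 222, 266 and 286 TPM, in fully mixed order. Exon 2 controls had 461, 383, 490 and 434 TPM and the cKO libraries 431, 454, 467 and 395 TPM, again mixed. The log2 fold changes were 0.05 (95% interval -0.21 to 0.32) and -0.02 (-0.20 to 0.17). The genes adjacent to each other thus gave a called fall for Igfbp2 and no call for Igfbp5. Without exon 2-3 control replicate 3 the value of Igfbp5 in that line was -0.03, and without cKO replicate 4 it was -0.02.

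Igfbp4 (chromosome 11, 99040005 to 99052655) encodes a binding protein that mainly restrains IGF action. Exon 2-3 controls had 224, 218, 192 and 271 TPM and the cKO libraries 271, 241, 259 and 273 TPM. Control replicate 4 alone reached the cKO range. The log2 fold change was 0.21 (SE 0.094, limma adjusted p 0.224), and without that control it was 0.30 with an adjusted p of 0.0382. Without control replicate 3 it was 0.14, which did not pass. It also passed after quantile normalisation (adjusted p 0.0348). With the exon 2 allele Igfbp4 had a mean of 238 ± 18.0 TPM in controls and 227 ± 7.53 TPM in cKO libraries (SD, n = 4 each), with every cKO value inside the control range.

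Igfbp3 (chromosome 11, 7206086 to 7215498) encodes the main IGF carrier of adult blood. It had 16.4 ± 2.37 TPM in exon 2-3 controls and 15.1 ± 1.47 TPM in the cKO, and 19.8 ± 1.95 and 17.5 ± 5.40 TPM in the exon 2 line (SD, n = 4 each). The exon 2 cKO libraries had 18.4, 24.4, 15.5 and 11.6 TPM, which is the widest relative spread of any member in any group (30.9% of the mean). Neither log2 fold change passed (-0.11 and -0.21, limma adjusted p 0.623 and 0.999). In the exon 2-3 line Igfbp3 was -0.19 without control replicate 3 and -0.04 without control replicate 1. Leaving out 1 exon 2 library moved it from -0.38 without cKO replicate 2 to -0.04 without cKO replicate 4.

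Summed over the 4 genes, binding protein transcripts came to 565 ± 70.1 TPM in exon 2-3 controls and 585 ± 43.4 TPM in the exon 2-3 cKO (SD, n = 4 each). The sums of these 2 groups overlapped, so the fall of Igfbp2 did not show in the total. The share of Igfbp2 in the sum was 15.1% ± 1.49 in exon 2-3 controls and 10.8% ± 1.14 in the cKO, with no library in common range. Sums in the exon 2 line were 774 ± 44.2 TPM in controls and 746 ± 41.5 TPM in the cKO. Igfbp5 made up 41.9% of the sum in exon 2-3 controls and 57.1% in exon 2 controls. The sum was 49.6 ± 7.27 times the TPM of Igf1 in exon 2-3 controls and 35.9 ± 6.10 times in the cKO, and the 2 groups overlapped. It was 33.0 ± 4.59 times in exon 2 controls and 31.6 ± 5.68 times in the exon 2 cKO.

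**Figure D2:**
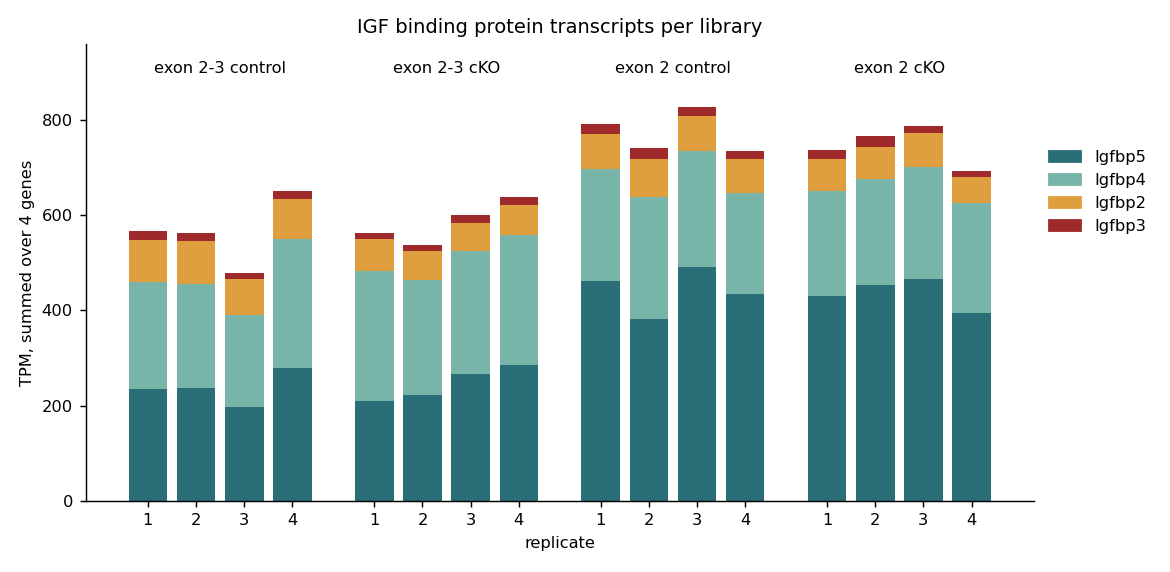
Stacked bars give the TPM of Igfbp5, Igfbp4, Igfbp2 and Igfbp3 in each of the 16 libraries, on a linear axis from 0. The exon 2-3 libraries sum to between 479 and 651 TPM and the exon 2 libraries to between 693 and 828 TPM, with the Igfbp5 part larger in the exon 2 line.

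Irs1 (chromosome 1, 82233105 to 82291439, minus strand), the adaptor that links the receptor to PI3 kinase, had the largest rise of the 8 genes. Exon 2-3 controls had 16.8, 19.8, 14.9 and 16.2 TPM and the cKO libraries 20.6, 26.6, 26.8 and 26.7 TPM. No cKO library was as low as any control, a separation upward found for 9.24% of all genes, although cKO replicate 1 cleared the highest control narrowly. The mean went from 16.9 ± 2.04 to 25.2 ± 3.03 TPM (SD, n = 4 each), a log2 fold change of 0.54 (SE 0.11, limma adjusted p 0.0178). The call was lost without control replicate 1, cKO replicate 2 or cKO replicate 3, where adjusted p-values reached 0.0593, and without a filter on low values (0.0692).

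Irs1 in the exon 2 line had 22.6, 20.8, 25.9 and 25.3 TPM in controls and 23.2, 25.4, 27.9 and 23.6 TPM in cKO libraries, which overlapped. The log2 fold change was 0.08 (95% interval -0.11 to 0.27). The lines differed by 0.46 (95% interval 0.16 to 0.77, unadjusted p 0.00475, limma adjusted p 0.106), which did not pass. It did so without exon 2-3 cKO replicate 1 (adjusted p 0.0395). In level, the exon 2-3 means were 16.9 TPM in controls and 25.2 TPM in the cKO. The exon 2 means were 23.7 TPM in controls and 25.0 TPM in the cKO. Levels set side by side across the lines also cross batches, so which group departs from the others cannot be told.

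Grb10 (chromosome 11, 11930499 to 12037428, minus strand), the adaptor that dampens the receptor and an imprinted gene, had 703, 694, 596 and 697 TPM in exon 2-3 controls. The cKO libraries had 553, 602, 601 and 630 TPM. Of the controls, 3 lay above every cKO library, and control replicate 3 lay among them. The log2 fold change was -0.17 (SE 0.066, unadjusted p 0.0278, limma adjusted p 0.169), which did not pass. It did so without control replicate 3 (-0.23, adjusted p 0.0355), after centring each library on its median (adjusted p 0.0114) and after rescaling without hemoglobin genes, Gm10222 and Gm10925 (adjusted p 0.0488). Exon 2 means were 836 ± 42.8 TPM in controls and 836 ± 44.4 TPM in the cKO (SD, n = 4 each), with a 95% interval of the log2 fold change from -0.14 to 0.14. A further row on the same strand, LOC102631979, overlaps Grb10 and averaged 27.5 TPM, so reads could be split between them.

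Igf2bp1 (chromosome 11, 95957163 to 96005944, minus strand) encodes an RNA-binding protein of embryonic cells that was named for binding Igf2 transcripts. Exon 2-3 controls had 37.2, 38.2, 31.8 and 38.2 TPM and the cKO libraries 43.5, 43.6, 43.0 and 47.5 TPM. The lowest cKO library was above the highest control. The mean went from 36.4 ± 3.08 to 44.4 ± 2.07 TPM (SD, n = 4 each), a log2 fold change of 0.28 (SE 0.070, limma adjusted p 0.0408). This call lay close to the threshold: of the 8 libraries, leaving out control replicate 3 or 4 kept it and leaving out any other ended it (adjusted p up to 0.106). It was also lost without a filter on low values (0.0963) and without an intensity trend (0.0645). Exon 2 means were 48.6 ± 2.30 and 50.1 ± 3.95 TPM (log2 fold change 0.04, 95% interval -0.11 to 0.19). The microRNA row Mir3063 lies within Igf2bp1 on the same strand and averaged 48.0 TPM, so the 2 rows may share reads.

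**Figure D3:**
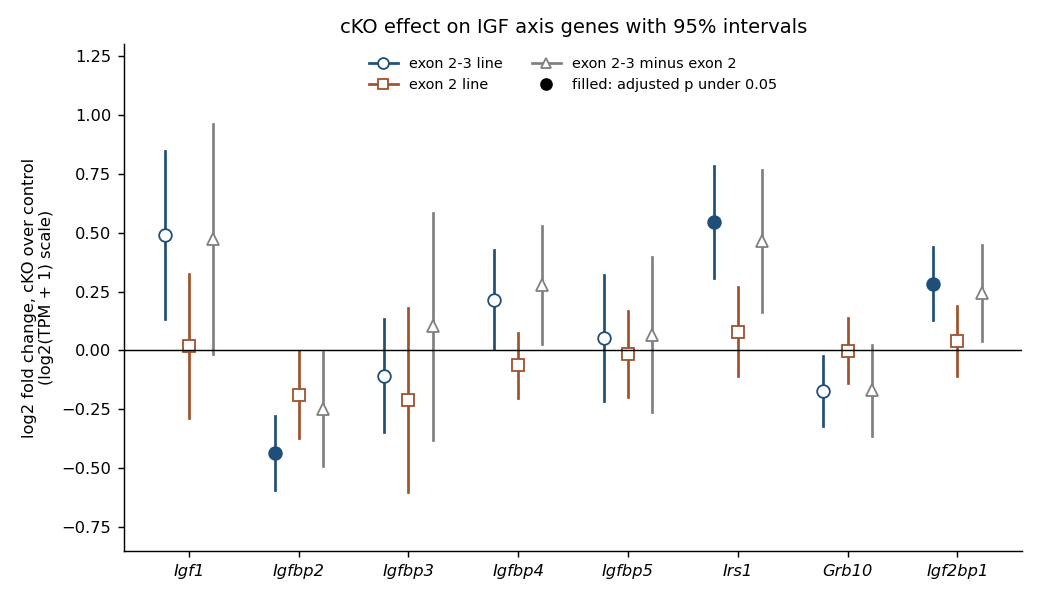
Log2 fold change of cKO over control on the log2(TPM + 1) scale, with 95% intervals, for the 8 genes in the exon 2-3 line (circles), the exon 2 line (squares) and for the difference between them (triangles). Filled symbols mark an adjusted p under 0.05, which Igfbp2, Irs1 and Igf2bp1 reach in the exon 2-3 line and no gene reaches in the exon 2 line or the difference.

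Across the 8 genes, the median log2 fold change was 0.13 in the exon 2-3 line, against 0.03 over all genes tested, with 5 positive and 3 negative. Without its sign the median change was 0.25, against 0.11 over all genes. The median size in the exon 2 line was 0.05, the same as over all genes. An unadjusted p under 0.05 was met in the exon 2-3 line by 6 of the 8 genes, against 21.1% of all genes. The 8 genes were chosen with earlier results of these data known, so their excess over all genes is a description and no test.

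One library bears on the exon 2-3 values of all 8 genes. Control replicate 3 of the exon 2-3 line was the lowest of its group for each of the 8 genes. It was also the lowest of its group for 64.9% of the genes tested, with a median 0.16 below the other controls on the log2 scale. Without it, 4 of the 8 genes were called, Igfbp2, Irs1, Igf2bp1 and Grb10, against 7.25% of all genes.

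The tissue label was checked against marker genes, as heart only: whether the tissue was ventricle alone was not tested. Of 14 cardiomyocyte markers, 5 were held (Tnnt2, Tnni1, Myl4, Myl7 and Pln) and summed to between 12400 and 18400 TPM in a library. They were called in neither line. The 3 neuron markers held (Syt1, Map2 and Mapt) summed to at most 2.40 TPM. Of the erythroid list, 4 of 8 were held, with 0 called. Their sum in a library ranged from 1510 to 11300 TPM in the exon 2-3 cKO, against 2990 to 4550 TPM in its controls. The endothelial (2 of 11 held) and myeloid (6 of 8 held) lists had 0 calls in either line.

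Markers of matrix and mesenchymal cells and of the epicardium were higher in the same cKO libraries in which Irs1 and Igf2bp1 were. Of 9 matrix markers, 6 were held, none at 0, and 5 of them (Fn1, Col1a1, Col3a1, Col5a2 and Dcn) were called higher in the exon 2-3 cKO, against 4.16% of all genes. The sum of the 6 lay between 645 and 723 TPM in the controls and between 1040 and 1110 TPM in the cKO. Fn1, which encodes fibronectin, averaged 366 ± 26.5 TPM in controls and 629 ± 29.7 TPM in the cKO (SD, n = 4 each), a log2 fold change of 0.78. The 1 epicardial marker held of 8, Tcf21, went from 35.4 ± 3.49 to 57.9 ± 3.71 TPM (log2 fold change 0.70). None of these 7 markers was called in the exon 2 line, where 0.0763% of all genes were called. Their difference between lines is not given here. Col5a2 kept its call in 3 of the 8 leave-one-out fits, and lost it without a filter on low values (adjusted p 0.0676). The other 5 called markers kept theirs in all 8. The part of these cells in the levels of Irs1, Igf1, Igf2bp1 and Igfbp4 was not tested.

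Other genes of the pathway were taken from 8 lists with 150 genes, of which 34 were held and 31 tested. For the exon 2-3 line 4 of the 31 were called higher and 2 lower, against 4.16% and 2.56% of all genes, and 25 did not pass. Their median log2 fold change was 0.08, against 0.03 over all genes. For the exon 2 line 0 of the 31 passed, against 0.0763% of all genes, with 1 unadjusted p under 0.05, against 3.21%. The difference between lines passed for 3, against 2.37% of all genes.

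Among relatives of the binding proteins, Ccn2 (chromosome 10, 24595442 to 24598683) encodes a matrix-associated growth factor modulator whose amino end resembles the IGF binding proteins. It rose in the exon 2-3 line from 82.8 ± 12.7 to 156 ± 18.9 TPM (SD, n = 4 each). Its log2 fold change was 0.91 (SE 0.11, limma adjusted p 0.00212). The lowest cKO library had 128 TPM and the highest control 102 TPM. The exon 2 means were 89.2 and 94.1 TPM, and the difference between lines was 0.83 (limma adjusted p 0.0341). Among 16 leave-one-out fits, 11 did not keep the call of that difference (adjusted p up to 0.0814), and it was lost without a filter on low values (0.104).

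Stc2 (chromosome 11, 31359441 to 31370061) encodes stanniocalcin 2, an inhibitor of the PAPP-A protease that cuts IGF binding proteins. Stc2 in the exon 2 line went from 6.65 ± 1.18 to 10.9 ± 0.894 TPM (SD, n = 4 each), with the lowest cKO library at 9.82 TPM and the highest control at 8.35 TPM. Its log2 fold change of 0.65 did not pass (SE 0.11, limma adjusted p 0.0951), except without control replicate 3 (0.0095) and when all 16 libraries shared a fit (0.0217). For the exon 2-3 line the value was -0.09, and the difference between the lines, -0.74, passed (limma adjusted p 0.0192), though not without exon 2 cKO replicate 2 (0.0509). The protease gene held, Pappa2, averaged 0.136 TPM and was not tested.

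Downstream of the receptor, Ddit4 (chromosome 10, 59949675 to 59951770), which encodes an mTORC1 inhibitor induced by stress, rose in the exon 2-3 line from 30.7 ± 4.82 to 46.8 ± 2.82 TPM (log2 fold change 0.60, limma adjusted p 0.0105). Each of 8 leave-one-out fits kept the call, which was lost without a filter on low values (0.0541). Foxo3, a transcription factor gene whose product AKT holds out of the nucleus, rose from 10.8 ± 1.54 to 14.9 ± 1.20 TPM (log2 fold change 0.44, limma adjusted p 0.0355). Inpp5j, which encodes a phosphoinositide 5-phosphatase, fell in the same line (log2 fold change -0.44, limma adjusted p 0.0291), and its difference between the lines was -0.57 (limma adjusted p 0.0395). Of 8 leave-one-out fits, 2 kept the call of Foxo3 and 3 that of Inpp5j. That difference of Inpp5j held in 4 of 16. Without a filter on low values Foxo3 (adjusted p 0.0976), Inpp5j (0.0706) and the difference of Inpp5j (0.0812) lost their calls. The other 8 tested genes of the PI3K and AKT list were not called in this line, nor were the other 4 of the mTORC1 list, such as Rps6kb1. The 5 adaptor and feedback genes tested and the 4 of the RAS and MAPK list had 0 calls.

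Of the IGF2BP and imprinted growth genes, Plagl1 (chromosome 10, 13090832 to 13131694), an imprinted zinc finger gene, rose in the exon 2-3 line from 356 ± 32.4 to 432 ± 21.0 TPM (log2 fold change 0.28, limma adjusted p 0.0438). It overlaps the noncoding Hymai row on its own strand and was still called in 2 of 8 leave-one-out fits. Its call was lost without an intensity trend (adjusted p 0.0802) and without a filter on low values (0.129). Ddc, an imprinted neighbour of Grb10, fell in that line (log2 fold change -0.44, limma adjusted p 0.0258) and kept its call in 4 of the 8, but not without that filter (0.0956). Lin28b, Hmga2 and Cobl were not called, with log2 fold changes of 0.35, 0.23 and -0.47.

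**Figure D4:**
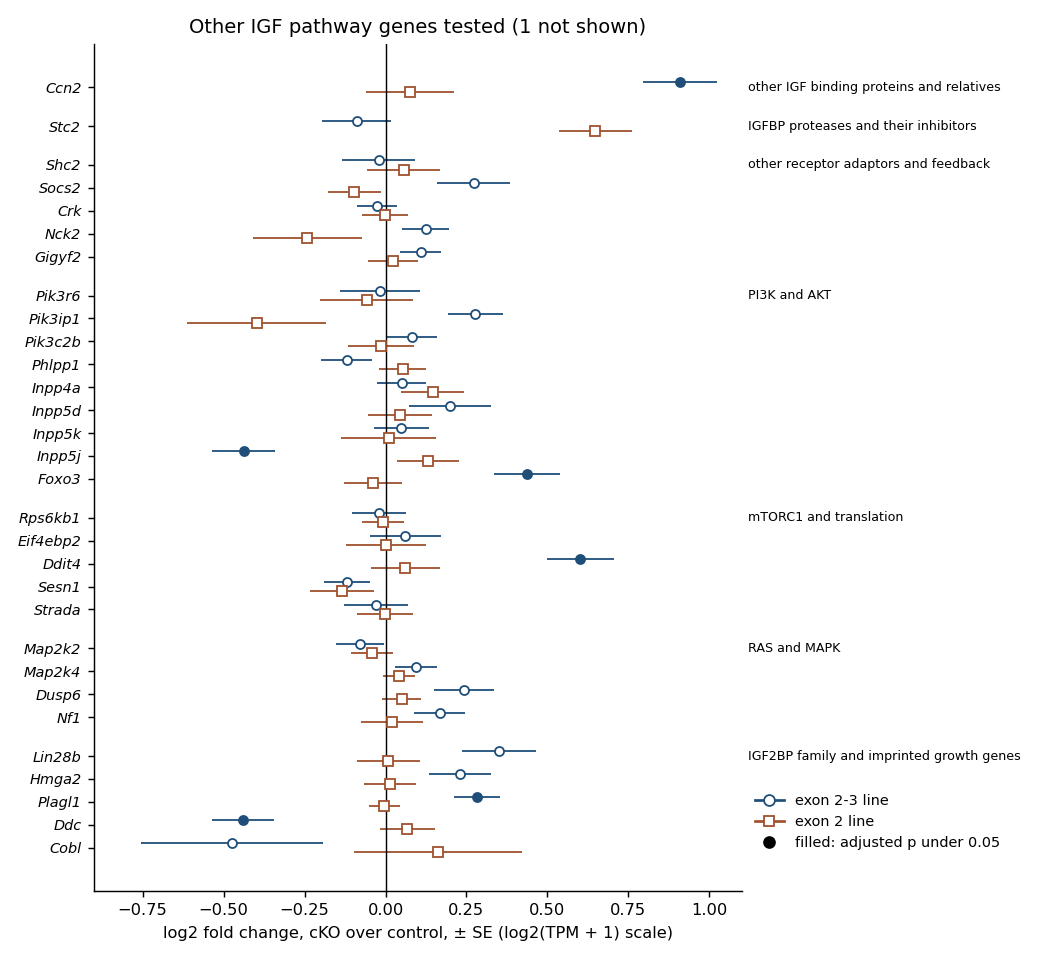
Log2 fold change of cKO over control (± SE, log2(TPM + 1) scale) for the other pathway genes tested, except 1 that is not shown, grouped by list, in the exon 2-3 line (circles) and the exon 2 line (squares). Filled symbols mark an adjusted p under 0.05, reached by Ccn2, Foxo3, Ddit4 and Plagl1 (higher) and by Inpp5j and Ddc (lower) in the exon 2-3 line.

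The control groups differed from each other in 5 of the 8 genes, against 52.6% of all genes. Values are exon 2-3 controls relative to exon 2 controls, where the median over all genes was -0.14, and 0.04 after centring on the library median. Igf1 was 0.487 of the exon 2 control level (log2 difference -0.99, SE 0.16, limma adjusted p 0.000122) and Igfbp5 0.537 of it (-0.90, SE 0.11, limma adjusted p 6.63e-06). Irs1 (-0.46), Igf2bp1 (-0.41) and Grb10 (-0.32) were also lower. For each of these 5 genes every exon 2-3 control lay below every exon 2 control, which held for 32.6% of all genes. Each of the 5 kept its call and direction whichever of the 16 libraries was left out and under the 10 other settings, among them 3 other scalings. Leaving out a cKO library could change only the spread, since the difference came from the controls. Median centring made some differences smaller: Grb10 was then -0.14, Igf2bp1 -0.23 and Irs1 -0.28. Marker sums also separated these controls. The 6 matrix markers summed to between 645 and 723 TPM in exon 2-3 controls and between 1030 and 1240 TPM in exon 2 controls, and the 5 cardiomyocyte markers to between 16900 and 18400 TPM and between 12400 and 14500 TPM. Their part in the differences of the 5 genes was not tested.

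Igfbp2, Igfbp3 and Igfbp4 did not pass between the controls. Igfbp2 was the 1 member with a higher level in the exon 2-3 controls (log2 difference 0.19, limma adjusted p 0.0580), and it passed under 4 of 10 other settings and without exon 2-3 control replicate 3, exon 2 control replicate 2 or exon 2 cKO replicate 4 (adjusted p down to 0.0216). Igfbp4 differed by -0.08, by 0.10 after median centring, and passed after quantile normalisation (adjusted p 0.0306). Over the 8 genes the median difference was -0.36.

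**Figure D5:**
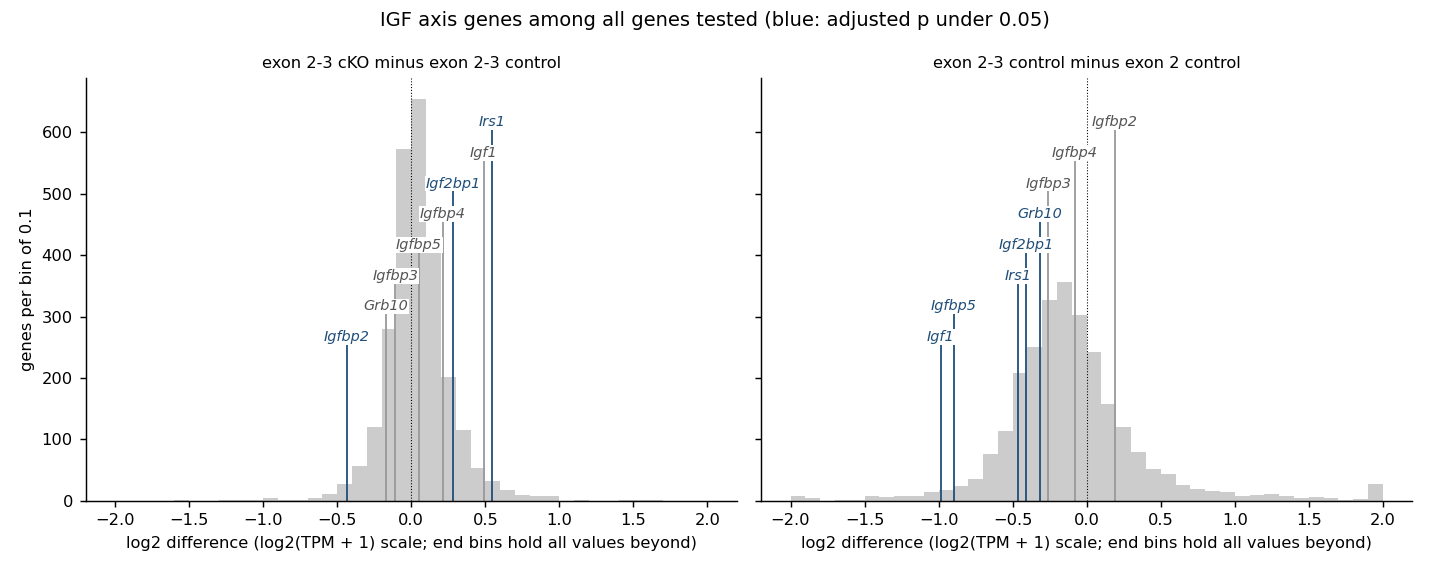
Histograms of the log2 difference of all 2620 genes tested (bins of 0.1, end bins holding all values beyond), with the 8 genes as labelled lines, for exon 2-3 cKO against control (left) and exon 2-3 controls against exon 2 controls (right). Blue lines mark an adjusted p under 0.05: Igfbp2, Irs1 and Igf2bp1 on the left, and Igf1, Igfbp5, Irs1, Igf2bp1 and Grb10 on the right.

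The gene whose values were most like each member's was sought among the other 2619 genes tested, by Pearson's r over the 16 libraries after subtracting each line's mean. For Irs1 it was Ccn2 (r = 0.932), for Igf2bp1 Tmcc3 (0.955), for Grb10 Nup107 (0.946) and for Igf1 Agap1 (0.913). For Igfbp5 it was Smap1 (0.892), for Igfbp2 Smyd2 (0.884), for Igfbp4 the endothelial marker Ramp2 (0.881) and for Igfbp3 Ptges3l (0.806). Subtracting each line's mean took out the mean difference between lines, and so between batches, but left that between cKO and control. Irs1 and Ccn2, for example, were called higher in the same cKO group, so their r partly restates that shared rise. Each r is also the highest among 2619 genes, and library depth is unknown, so these values are a description with no test.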

How the data were processed

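The authors deposited 1 table of TPM values (length-normalised transcript abundance) for ventricles of 16 libraries, matched to samples by the column names in their descriptions. The submitters' processing notes name Trim Galore 0.6.7, HISAT2 2.2.1, StringTie 2.2.1, featureCounts, DESeq2 and the build GRCm38, with no role for each. The labels differ on library preparation (stranded mRNA or depletion of ribosomal RNA), and the extraction text names cortical neurons. Whether counting used the strand is not given in the sources used here. The table was held in part: 5921 genes, which sum to between 15.2% and 17.1% of a library's TPM. Coordinates of 5919 rows equal those of RefSeq on GRCm38.p6. Atf4 was not analysed here, so no gene checks the labels. TPM keeps no depth, so intervals for counting error are not given.

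Tests ran on log2(TPM + 1), a scale that understates changes of low genes. The 2620 genes whose TPM averaged 1 or more entered limma 3.58.1 in R 4.3.3 (lmFit, eBayes with an intensity trend), two-sided, with Benjamini-Hochberg adjustment over all of them and a threshold of 0.05. The 8 libraries of a line formed one fit. The difference between lines and between controls came from a group means model over 16. The procedure was tested on simulated data with independent noise for each gene. Those data held no shift of a whole library, so that test does not cover such shifts. P-values set each difference against the spread between libraries, which limma draws toward a trend over all genes tested. The fits over 16 libraries shared the spread of all 4 groups. Whether libraries came from separate litters is not given. Libraries of a group correlated with r between 0.982 and 0.992, and no pair held more than 0.0763% equal values.

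The 8 members, the 8 pathway lists and the marker lists were chosen with earlier results of these data known. Named are the members, each pathway gene called in a line or in the difference between lines, otherwise the gene with the smallest p in each line, and the gene most like each member. Other genes named were chosen after their values were seen. Among the pathway genes tested, 1 is counted but not reported here by name, and the plot of pathway genes leaves it out. Tables and figures used Python 3.11.15, pandas 2.3.3 and matplotlib 3.10.9. As alternatives, the fits were repeated with a pseudocount of 0.1, no filter, a minimum mean TPM of 5, quantile normalisation, median centring, rescaling, the replicate block, no trend, a threshold of 0.01, a joint fit or array weights, and leaving out each library.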

Additional observations from a re-analysis of the deposited data

Results flagged for a closer look

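A library lying far from the other 3 of its group was looked for in 32 groups of 4 values (8 genes in 4 groups). In independent groups, chance alone would mark about 1 in 20. The 8 genes share the same libraries, so the 32 are not independent and the count found is a description. Such a library was found 5 times, all in the exon 2-3 line. In cKO replicate 1, Igf1 (12.8 TPM) and Irs1 (20.6 TPM) lay below the other 3 cKO libraries. Without that library the log2 fold change of Igf1 was 0.60 (limma adjusted p 0.0621) and that of Irs1 was 0.63. Control replicate 3 lay below the other controls for Grb10 (596 TPM) and Igf2bp1 (31.8 TPM). Igf2bp1 in cKO replicate 4 (47.5 TPM) lay above the other cKO libraries, and its log2 fold change without that library was 0.25 (limma adjusted p 0.106).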

How the results depend on the processing

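Of the 8 genes, the exon 2-3 line had 3 calls, against 6.72% of all genes. This became 1 without a filter on low values (1.71% of all genes) and 1 at a threshold of 0.01 (1.64%). The number lay between 1 and 4 when 1 library was left out, against 2.67% to 7.25% of all genes. Over all genes, the calls of that line numbered 176, and 95 without a filter, 311 after quantile normalisation, 343 after median centring, 282 after rescaling and 43 at the stricter threshold. The exon 2 line had 0 calls among the 8 under every alternative run, against 0.0359% to 0.153% of all genes. For the difference between lines the number was 1 after median centring (Grb10), against 4.85% of all genes. It lay between 0 and 1 when 1 library was left out, against 1.37% to 3.21%. Between the controls it lay between 5 and 7, against 26.0% to 58.9%. With the replicate number as a block, the same 3 genes were called for exons 2-3 (5.69% of all genes). The block gave 0 calls for exon 2 (0.0763%) and 0 in the difference (2.6%). Between the controls 6 were called (53.4%), where Igfbp2 was added (limma adjusted p 0.0218). Among the other genes named, the block ended the calls of Plagl1 (0.0793) and Col5a2 (0.0513) in the exon 2-3 line, and added Ddit4 (0.0299) and Foxo3 (0.0299) to the difference between lines. Whether the numbers pair the libraries is not settled: same-numbered libraries' deviations correlated between -0.029 and 0.21. In the exon 2 line, controls 1, 2 and 3 correlated best with the cKO library of their own number. In the exon 2-3 line only control 4 did. Signs turned for values that were not called. For exon 2, Igfbp5 was 0.0242 after quantile normalisation and 0.00312 after rescaling, and Grb10 was 0.0531, 0.00336 (median centring) and 0.0176 (rescaling). The difference between lines of Igfbp3 was -0.11 with array weights, and Igfbp4 between the controls was 0.10 after median centring. With 1 library left out, Igf1 for exon 2 lay between -0.0711 and 0.133, Igfbp5 between -0.0831 and 0.0361 and Grb10 between -0.034 and 0.028. Igfbp5 in the exon 2-3 line then lay between -0.0318 and 0.134, its difference between lines between -0.0161 and 0.149, and that of Igfbp3 between -0.0668 and 0.272. Of 1138 values of single genes under alternatives, 992 kept their direction and side of the threshold, 84 lost and 39 gained a call, and 23 turned sign. Many of these results had no call to lose, such as the 8 genes for exon 2, so the 992 does not measure how stable the calls were. In the exon 2-3 line, Igfbp2 kept its call in 8 of 8 leave-one-out fits and 10 of 10 other settings. Irs1 kept its call in 5 of 8 and 8 of 10, and Igf2bp1 in 2 of 8 and 7 of 10. The depth of each library is unknown, so its effect on low genes could not be given.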
